A study of Rattus norvegicus with 8 samples.

Results

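A history of silencing was compared in neurons that were all silenced at the time of measurement: group TT, which had tetrodotoxin (TTX) in both treatment periods, against group HT, which had vehicle (water) in the first and TTX in the second. These are 4 of the 8 libraries in the study, 2 per group, chosen by treatment alone, and all expressed genes were compared. Neurons of hippocampus and cortex from Sprague Dawley rat pups of P1-P2 were grown together in primary culture. TT cultures received 1 µM TTX for 24 h from day 14 in vitro, had it washed out for 48 h, and received TTX again for 4 h on day 17. HT cultures received vehicle for the first 24 h and were then handled like TT. Both groups had 2 mM bromouridine (BrU) in the medium for the last 30 min. The remaining groups, TH (TTX, then vehicle) and HH (vehicle both times), also had 2 libraries each and entered the model to estimate the spread between libraries. The samples are titled as hippocampal cultures, while the growth protocol states that cortical tissue was added, so the values are an average over both regions and over every cell type in the dish.

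TTX blocks voltage-gated sodium channels and so stops action potentials. Neurons silenced for many hours are known to raise the strength of their excitatory synapses, a form of homeostatic plasticity, and the question put by this comparison is whether an earlier, washed-out silencing left a mark on the transcription that a second silencing meets. BrU-seq reads RNA made within the labelling window, because the antibody captures only RNA that has taken up the analogue. It therefore follows transcription more closely than a measurement of total RNA, in which older transcripts are included. Immediate early genes such as Fos and Npas4 are transcribed within minutes of synaptic activity, which makes them a reading of the activity state of a culture.

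Library totals were 3940806 and 4907817 counts in TT and 3890197 and 3491150 counts in HT, and 11372 of the 16871 genes in the table (67.4%) passed the filter on low counts and were tested. The replicates of each group differed by more than sampling noise, so none was counted as a repeat of another. The chi-square per degree of freedom was 4.00 in TT, 5.17 in HT, 7.03 in TH and 11.09 in HH. The labels do not say whether replicates came from separate cultures or litters, so the p-values speak only of how far these libraries vary. That variation may be technical in part. In HT, TH and HH the replicates also differed in the reads of a Y-linked gene, given below. The libraries did not group by treatment: the closest pair was TT replicate 1 with HT replicate 2 (Pearson r = 0.9873 over the genes tested, in log2 CPM, a count adjusted for the TMM-scaled size of its library), ahead of the TT replicates (0.9871) and the HT replicates (0.9824).

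A further split of the libraries crossed the groups. Eif2s3y, a translation initiation factor gene of chromosome Y, had 3 and 0 reads in TT, against 2 and 191 reads in HT. It had 1 and 249 reads in TH and 0 and 215 reads in HH. Of the 8 libraries, HT replicate 2, TH replicate 2 and HH replicate 2 thus held over 10 reads of this Y-linked gene. The other 5 held 3 or fewer, with TT replicate 2 on the side of the libraries numbered 1. Below, a library is said to hold these reads only above a floor of 10. The gene listed as Ddx3, a symbol that RefSeq also gives as a synonym of the Y-linked Ddx3y, had 2 and 0 reads in TT and 2 and 190 reads in HT, the same split. Eif2s3x, the X-linked partner of Eif2s3y, was at 90.2 and 93.8 CPM in TT and 74.2 and 54.7 CPM in HT, lowest in the library with Y-linked reads. Y-linked reads come from cells of male pups, and the labels do not give the sex of the pups. These 3 genes were picked after their values were seen. The counts over all genes and the activity and oligodendrocyte results below are also given with HT replicate 2 left out or with the presence of Eif2s3y reads as a term, and most other lists with single libraries left out.

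Neurons, astrocytes and oligodendrocyte lineage cells were all marked in both groups. Among 18 excitatory neuron markers tested, 7 stood higher and 11 lower in TT, beside 50.1% higher and 49.9% lower over all genes tested. Their log2 changes ran from -0.93 to 0.74, with a median of -0.12. The lowest was that of Neurod6, a transcription factor gene of excitatory cortical and hippocampal neurons. Neurod6 was at 11.0 and 14.7 CPM in TT and 29.2 and 19.9 CPM in HT. Of 20 inhibitory neuron markers 7 stood higher and 13 lower (median -0.09), and of 19 astrocyte markers 9 stood higher and 10 lower (median -0.05). Of 24 markers of dividing cells 14 stood higher and 10 lower (median 0.01), with reads in both groups. With 1 TT or HT library left out the excitatory median ran from -0.24 to -0.04. The inhibitory median was -0.19 without TT replicate 2 and 0.07 without HT replicate 1, the astrocyte median -0.165 without TT replicate 1 and 0.08 without HT replicate 2, and the median of dividing cells -0.06 without HT replicate 1 and 0.14 without HT replicate 2, so that the direction of these 3 lists turned on single libraries. With Eif2s3y reads as a term the excitatory, inhibitory and astrocyte medians were -0.01, -0.195 and 0.10. Microglial and vascular markers were sparse, with 6 of 16 tested in each list and summed levels of 53.6 and 56.6 CPM in TT against 50.5 and 62.0 CPM in HT for microglia, and of 117.1 and 85.7 CPM in TT against 84.1 and 130.0 CPM in HT for vascular cells and fibroblasts. The microglial median ran from -0.39 without TT replicate 2 to 0.78 without HT replicate 2, and the vascular median from -0.20 without HT replicate 1 to 0.22 without HT replicate 2. Oligodendrocyte lineage markers differed most between the groups and are described below.

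No gene passed the threshold between TT and HT (edgeR quasi-likelihood test, Benjamini-Hochberg adjusted p under 0.05; 0 of 11372 genes, 0%; smallest adjusted p = 1.00). The count was also 0 with DESeq2 and with limma-voom. An unadjusted p under 0.05 was reached by 267 genes, 2.35% of those tested, of which 146 (1.28%) stood higher and 121 (1.06%) lower in TT; a uniform p would give 568.6. The count was 255 with limma-voom. With DESeq2, which was run without the filter on low counts, it was 100 of 14917 genes. Log2 changes lay evenly about 0, with 5% of genes below -0.41 and 5% above 0.40. In 2069 genes (18.2%) both TT libraries were above both HT libraries, and in 1838 genes (16.2%) both were below, 3907 genes (34.4%) without overlap in all. An exact two-sided permutation test of 2 libraries against 2 cannot give a p below 0.333, so no single gene was tested that way.

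The bounds on what could have been missed depended on expression. The 95% interval of the log2 change lay within 2-fold either way for 9329 genes, or 82% of those tested. Among the 2446 genes at a mean of 100 CPM or more, the median half-width of the interval was 0.31 and 96.2% of genes were bounded within 2-fold. Among the 1229 genes under 5 CPM the half-width was 1.01 and 11% were so bounded, so the interval of most genes at this level reached past 2-fold. Means of the groups differed by more than 2-fold in 38 genes.

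The fit was affected by which libraries it held. With the presence of Eif2s3y reads as a term in the model, 0 genes passed (edgeR, smallest adjusted p = 0.363), while 664 genes (5.84%) lay at an unadjusted p under 0.05. All 267 genes above kept their direction with the term, and 194 of them again had a p under 0.05. The 267 were picked by p from the same libraries. A kept direction, here or without HT replicate 2, was therefore largely set by that choice. Without HT replicate 2, which leaves 3 libraries without such reads, 415 genes had an unadjusted p under 0.05 and all 267 again kept their direction. A fit of the TT and HT libraries alone gave 459 of 11176 genes at an unadjusted p under 0.05 (4.11%) and a smallest adjusted p of 0.923.

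**Figure D1:**
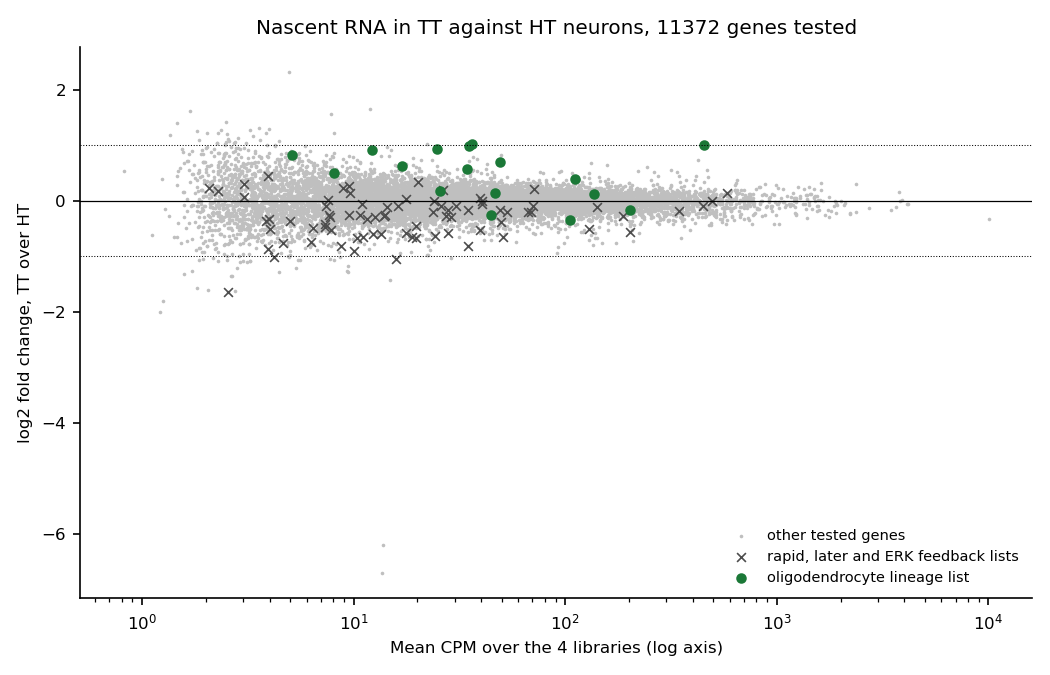
Log2 fold change of TT over HT (vertical axis) against the mean CPM of the 4 libraries (horizontal log axis) for the 11372 genes tested, with dotted lines at 2-fold. Genes of the rapid, later and ERK feedback lists (crosses) lie mostly below 0 and oligodendrocyte lineage markers (filled circles) mostly above it. The lowest points are Eif2s3y and Ddx3, whose reads are nearly all in 1 HT library.

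The gene of smallest p was Slc2a2, which encodes the glucose transporter GLUT2. It had 8.72 and 7.77 CPM in TT, against 1.29 and 1.97 CPM in HT. Both TT libraries were several times above both HT libraries, the log2 change was 2.32 ± 0.47 (SE, n = 2 per group) and the unadjusted p was 0.000383, which did not survive adjustment (edgeR adjusted p = 1.00). It stayed between 2.04 and 2.64 under every alternative setting tried. Under vehicle the same gene had 9.67 and 5.46 CPM in TH and 2.78 and 5.48 CPM in HH, with overlapping groups. Arg2, the mitochondrial arginase, had 18.4 and 19.7 CPM in TT and 9.05 and 10.4 CPM in HT (log2 change 0.97 ± 0.26). Clic2, a member of the intracellular chloride channel family, had 5.98 and 5.38 CPM in TT and 2.59 and 1.97 CPM in HT (1.30 ± 0.37). In these 3 genes the replicates lay close together and the groups were apart. These and the other leading genes were picked by p in the same libraries, which largely sets that their groups are apart. Over all genes tested, 34.4% had groups that did not overlap.

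The log2 change of 6 of the 12 higher genes of smallest p moved by over 1.5 times without TT replicate 2. Enpp6, a choline-specific phosphodiesterase that marks newly forming oligodendrocytes, had 50.8 and 70.5 CPM in TT and 34.7 and 40.7 CPM in HT (log2 change 0.69 ± 0.19). Fa2h, which hydroxylates the fatty acids of myelin sphingolipids, had 20.9 and 38.2 CPM in TT and 14.0 and 15.4 CPM in HT (1.02 ± 0.29). Plxnb3, a semaphorin receptor gene expressed in oligodendrocytes, had 11.2 and 25.1 CPM in TT and 5.69 and 5.90 CPM in HT (1.66 ± 0.46). In all 3 the groups did not overlap and TT replicate 2 was the highest library, and without it the log2 changes were 0.44, 0.51 and 0.95. Tcf7l2, a transcription factor of the Wnt pathway that is also active in differentiating oligodendrocytes, had 36.9 and 56.0 CPM in TT and 28.5 and 25.3 CPM in HT (0.79 ± 0.21). Map7, a microtubule-binding protein gene, had 163 and 219 CPM in TT and 113 and 132 CPM in HT (0.64 ± 0.18). Tmprss5, a transmembrane serine protease gene, had 8.47 and 13.9 CPM in TT and 4.66 and 5.05 CPM in HT (1.22 in log2). TT replicate 2 was again highest, and without it the log2 changes of Tcf7l2, Map7 and Tmprss5 were 0.46, 0.42 and 0.805.

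The other 3 were Paqr5, a membrane progestin receptor gene (47.1 and 46.4 CPM in TT, 33.1 and 32.8 CPM in HT), Slc5a3, the myo-inositol cotransporter (11.96 and 12.15 CPM in TT, 6.47 and 7.30 CPM in HT), and Rad18, a ubiquitin ligase gene of DNA damage tolerance (48.1 and 52.0 CPM in TT, 34.1 and 37.3 CPM in HT). In each of them both TT libraries exceeded both HT libraries, beside 18.2% of all genes.

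**Figure D2:**
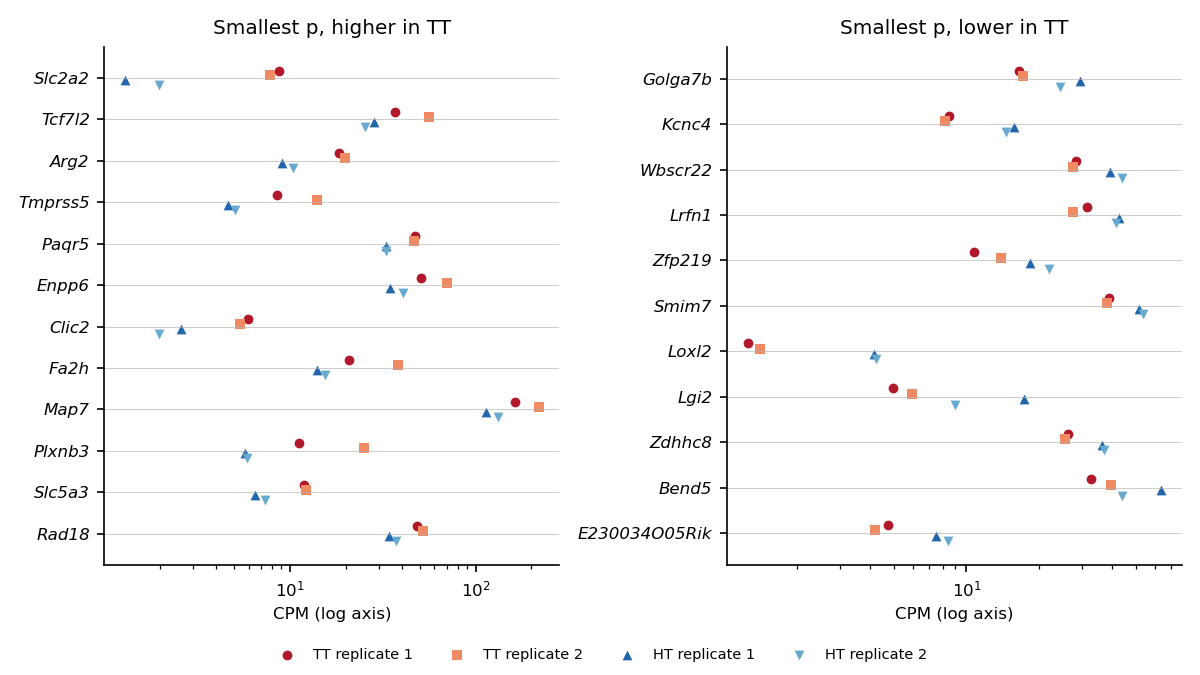
CPM in each TT and HT library (log axis) for the 12 genes of smallest p that stood higher in TT (left) and 11 of the 12 that stood lower (right). None passed the adjusted threshold. The groups do not overlap in any of the 23 genes, which follows largely from picking them by p in these libraries. TT replicate 2 lies well above TT replicate 1 for Fa2h, Plxnb3 and Tcf7l2.

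On the lower side, Kcnc4, which encodes the Kv3.4 potassium channel, had 8.47 and 8.17 CPM in TT, against 15.8 and 14.6 CPM in HT (log2 change -0.87 ± 0.25, edgeR unadjusted p = 0.00543). Golga7b, a partner of palmitoyl acyltransferases, had 16.4 and 17.1 CPM in TT and 29.5 and 24.4 CPM in HT (-0.68 ± 0.20). Zdhhc8, itself a palmitoyl acyltransferase gene, had 26.4 and 25.5 CPM in TT and 36.5 and 37.1 CPM in HT (-0.50 ± 0.17). Within each group the values were close, and no TT value reached the lower HT value. Lrfn1, a synaptic adhesion protein gene, had 31.4 and 27.7 CPM in TT and 42.7 and 41.5 CPM in HT (-0.51 ± 0.15). Lgi2, of the LGI family of secreted proteins, had 4.98 and 5.98 CPM in TT and 17.3 and 8.98 CPM in HT (-1.26 ± 0.40), and here the HT replicates were themselves far apart; without HT replicate 1 the log2 change was -0.70.

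Also among the 12 were Wbscr22 (a ribosomal RNA methyltransferase gene), Zfp219 (a zinc finger transcription factor gene), Smim7, Bend5, Loxl2 and E230034O05Rik, with log2 changes from -1.63 for Loxl2 to -0.45 for Smim7. Loxl2, a lysyl oxidase of the extracellular matrix, had the largest of these differences at the lowest level, 1.25 and 1.39 CPM in TT and 4.14 and 4.21 CPM in HT. In these 6 genes, too, both TT libraries lay below both HT libraries, beside 16.2% of all genes. The log2 change of Bend5, -0.57, was -0.27 without HT replicate 1.

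The same history can be read in neurons that had vehicle at labelling, from TH against HH, which shares no library with TT against HT. Of the 146 higher genes, 114 (78.1%) were also higher in TH than in HH, and of the 121 lower genes 81 (66.9%) were also lower, beside 57.9% of all genes tested with the same sign. Of the 12 leading higher genes 11 had the same sign, Paqr5 being the exception, and of the 12 leading lower genes 9. Without HH replicate 1 and HT replicate 1, whose deviations from their replicates were correlated across genes (r = 0.447), the shares were 75% of 132 higher genes and 71.2% of 236 lower genes, beside 56.9% of all genes, and the leading genes kept the same sign in 11 of the 12 higher and 7 of the 12 lower (58.3%). The correlation of 0.447 is of replicate 1 minus replicate 2, and so does not say which replicate departed. Shares of the same sign are a description, since the genes of a library are not independent of each other. The genes were also picked in a fit whose spread drew on TH and HH. Pearson r of the log2 changes was 0.375 for the higher and 0.349 for the lower genes, beside 0.28 over all genes. Without HH replicate 1 and HT replicate 1 it was 0.0155 and -0.0644 for the sets of that fit, beside 0.147. TH against HH called 0 genes (edgeR; 0%), with 464 at an unadjusted p under 0.05 (4.08%).

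Whether the history difference under TTX differed from that under vehicle was tested by the interaction, in which 0 genes passed (edgeR; 0%; smallest adjusted p = 1.00; 186 genes or 1.64% at an unadjusted p under 0.05). The gene of smallest p, Tdrd5, a Tudor domain protein gene known from the germ line, had 3.74 and 3.39 CPM in TT and 2.33 and 2.25 CPM in HT, and 0.276 and 0.607 CPM in TH and 3.39 and 3.39 CPM in HH. Paqr5 had 37.0 and 34.6 CPM in TH and 42.3 and 46.9 CPM in HH, the opposite order to that under TTX. Cspg4, the NG2 proteoglycan of oligodendrocyte progenitors, had 92.4 and 92.8 CPM in TT and 113.6 and 120.4 CPM in HT, and 85.9 and 93.9 CPM in TH and 67.5 and 73.0 CPM in HH. In both genes the groups did not overlap under either second treatment and stood in opposite order, but the difference of the differences did not pass (edgeR adjusted p = 1.00). The next were Unc119b and E230034O05Rik, with interaction log2 values of -1.07 ± 0.27 and -1.45 ± 0.41.

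Oligodendrocyte lineage markers had the widest departure from 0 of the 27 gene lists. These cells pass from progenitors through a committed stage to myelin-forming cells, and their presence in neuron cultures varies with the preparation. Of 20 markers listed, 17 were tested, 14 stood higher and 3 lower in TT, and the median log2 change was 0.57, beside a median of 0.0004 over all genes. At an unadjusted p under 0.05, 4 stood higher and 1 lower, beside 1.28% and 1.06% of all genes, and 0 passed after adjustment (edgeR). In 8 of them both TT libraries were above both HT libraries and in 2 below, beside 18.2% and 16.2% of all genes. In a bulk library fewer cells of a type and less RNA per cell cannot be told apart.

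The 3 lower members were Cspg4, given above, Pdgfra and Olig1. Pdgfra, the growth factor receptor of progenitors, had 205 and 176 CPM in TT and 197 and 230 CPM in HT, and Olig1, a lineage transcription factor gene, 38.6 and 42.2 CPM in TT and 46.8 and 50.0 CPM in HT. The groups overlapped for Pdgfra and not for Olig1. Of the higher members, Gpr17, a receptor gene of the committed stage, had 14.9 and 25.9 CPM in TT and 13.7 and 12.9 CPM in HT (log2 change 0.63 ± 0.28). Bcas1, which marks early myelinating cells, had 372 and 839 CPM in TT and 329 and 271 CPM in HT (1.01 ± 0.44). Ugt8, the enzyme that makes galactosylceramide, had 20.7 and 44.4 CPM in TT and 17.3 and 17.1 CPM in HT (0.93 ± 0.37), and Myrf, the regulator of myelin genes, 24.7 and 68.7 CPM in TT and 26.1 and 21.3 CPM in HT (0.99 ± 0.47). Without TT replicate 2 the log2 changes were 0.17 for Gpr17, 0.31 for Bcas1, 0.27 for Ugt8 and 0.06 for Myrf. Olig2 and Sox10, expressed at every stage, stood at 0.13 ± 0.12 and 0.14 ± 0.25.

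Most of that difference was in a single library. TT replicate 2 was the highest of the 4 libraries for 13 of the 17 markers, against 27% of all genes tested, and its summed marker level was 1915 CPM beside 1195 CPM in TT replicate 1, 1139 CPM in HT replicate 1 and 1134 CPM in HT replicate 2. The list levels, as mean log2 CPM relative to the 4 libraries, were -0.12 and 0.53 in TT and -0.17 and -0.24 in HT. Without TT replicate 2 the median log2 change was 0.08, with 10 of 17 above 0. Without TT replicate 1 it was 0.93 over the 18 markers that then pass the filter, and with Eif2s3y reads as a term 0.59. Enpp6 kept a positive sign in every setting (0.32 to 0.90), while Bmp4, a growth factor gene of the committed stage at 8.22 and 23.5 CPM in TT and 9.57 and 7.58 CPM in HT, turned to -0.06 without TT replicate 2. In TH against HH, which hold none of these libraries, 15 of the 17 stood higher, beside 50.2% of all genes. The median there was 0.48, and was not read with single TH or HH libraries left out. The part played by the number of oligodendrocytes in each dish was not tested.

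**Figure D3:**
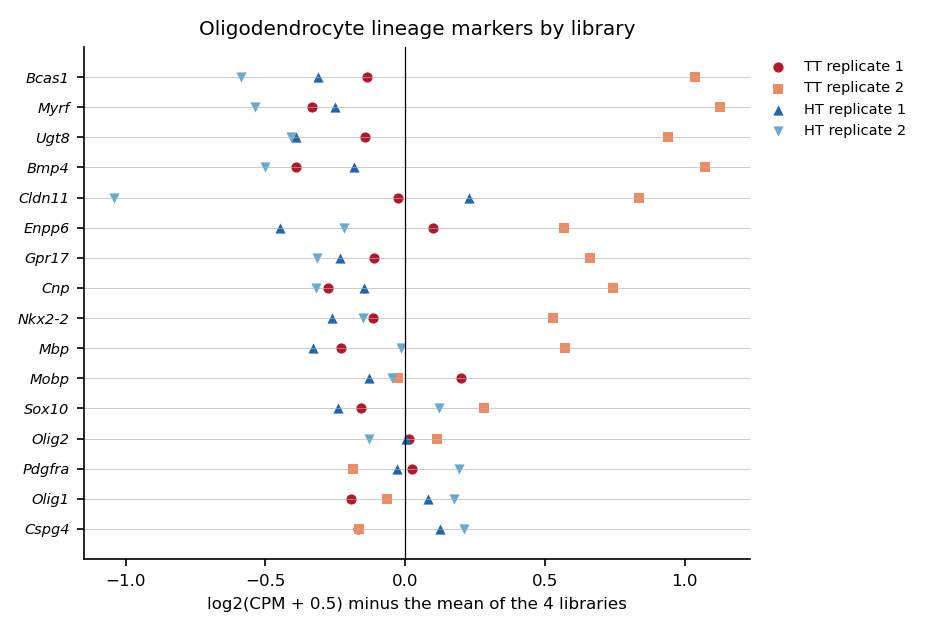
Log2(CPM + 0.5) of 16 of the 17 oligodendrocyte lineage markers tested, in each TT and HT library, relative to the mean of the 4 libraries, ordered by log2 change of TT over HT. TT replicate 2 is to the right for most genes in the upper part of the plot, while TT replicate 1 lies near the HT libraries; Cspg4 and Olig1, at the bottom, are to the left in both TT libraries.

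Activity-response genes stood slightly lower in TT, and their values turned in large part on the other library that stood apart, HT replicate 1. Of 28 rapid genes tested (of 33 listed), 9 stood higher and 19 lower, with a median log2 change of -0.33, and none passed (edgeR; 1 at an unadjusted p under 0.05, beside 2.35% of all genes). Of 36 later genes (of 40 listed) 7 stood higher and 29 lower, with a median of -0.20. Of 15 genes of feedback on the ERK kinase pathway (of 16 listed) 1 stood higher and 14 lower, with a median of -0.33. Both TT libraries lay below both HT libraries in 9 rapid, 10 later and 5 ERK feedback genes, beside 16.2% of all genes. Both lay above in 1, 4 and 0 genes, in the same order, beside 18.2% of all genes. HT replicate 1 was the highest of the 4 libraries for 18 of the 28 rapid, 22 of the 36 later and 12 of the 15 ERK feedback genes, against 26.1% of all genes. Without it the medians were -0.11, -0.06 and 0.02. Without HT replicate 2, which leaves HT replicate 1 as the only HT library, they were -0.41, -0.31 and -0.63. With Eif2s3y reads as a term they were -0.61, -0.41 and -0.58. No TT library held these reads. The term is 1 difference shared by the replicates of HT, TH and HH. It thus shifts the HT level by the TH and HH libraries too, and HT replicate 2 stays in that level. Without TT replicate 2 and HT replicate 1 the medians were 0.03, 0.10 and 0.04. In TH against HH, 22 of the rapid, 34 of the later and 14 of the ERK feedback genes stood lower, beside 50.2% of all genes higher. Their medians there were -0.70, -0.575 and -0.60, and were not read with single TH or HH libraries left out.

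Of the transcription factors of the rapid response, Fos had 11.0 and 9.36 CPM in TT and 11.6 and 6.46 CPM in HT (log2 change 0.15 ± 0.83), with both TT values inside the range of HT. Npas4, a neuron-specific factor that responds to calcium entry, had 3.74 and 3.19 CPM in TT and 9.57 and 1.97 CPM in HT (-0.77 ± 1.53). Nr4a1, an orphan nuclear receptor gene, had 9.97 and 10.8 CPM in TT and 26.6 and 16.3 CPM in HT (-1.05 ± 1.41). The TT replicates were close to each other in all 3 genes, while the HT replicates were far apart. The standard errors draw on every group, and HH had 37.0 and 5.74 CPM for Fos and 53.0 and 3.91 CPM for Npas4. Egr4, a zinc finger factor gene, had 2.99 and 2.59 CPM in TT and 5.95 and 5.33 CPM in HT (-1.02 ± 0.68), and Arl4d, a small GTPase gene, 8.97 and 12.3 CPM in TT and 17.6 and 14.9 CPM in HT (-0.60 ± 0.24). Nr4a1, Egr4 and Arl4d were lower in both TT libraries than in either HT library, as were 16.2% of all genes.

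Among the effectors, Arc, which removes AMPA receptors from synapses, had 4.24 and 5.18 CPM in TT and 9.31 and 6.46 CPM in HT (log2 change -0.74 ± 0.95). Bdnf, a neurotrophin, had 17.7 and 12.9 CPM in TT and 36.0 and 12.1 CPM in HT (-0.67 ± 1.03). Homer1, a postsynaptic scaffold gene, had 329 and 315 CPM in TT and 407 and 323 CPM in HT (-0.18 ± 0.41). Bdnf and Homer1 were highest in HT replicate 1, and HT replicate 2 was close to the TT libraries. Nptx2, a pentraxin that clusters AMPA receptors, had 16.9 and 14.3 CPM in TT and 19.4 and 13.8 CPM in HT (-0.09 ± 0.26). Ptgs2, the inducible cyclooxygenase, had 1.74 and 0.797 CPM in TT and 5.43 and 2.25 CPM in HT (-1.64 ± 0.74), and Rgs2, a brake on G protein signalling, 7.47 and 6.57 CPM in TT and 16.0 and 10.1 CPM in HT (-0.91 ± 0.44). Of the ERK feedback genes, Spry2, an inhibitor of receptor kinase signalling, had 22.2 and 22.7 CPM in TT and 37.8 and 29.2 CPM in HT (-0.58 ± 0.23), and Dusp6, an ERK phosphatase gene, 14.9 and 13.7 CPM in TT and 26.9 and 15.4 CPM in HT (-0.57 ± 0.70). Both TT libraries lay below both HT libraries for Arc, Ptgs2, Rgs2, Spry2 and Dusp6, beside 16.2% of all genes. The groups overlapped for Bdnf, Homer1 and Nptx2. Without HT replicate 1 the log2 change was -0.65 for Nr4a1, -0.44 for Arc, 0.33 for Bdnf and -0.86 for Ptgs2. It was -0.53 for Rgs2, -0.38 for Spry2 and -0.11 for Dusp6.

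**Figure D4:**
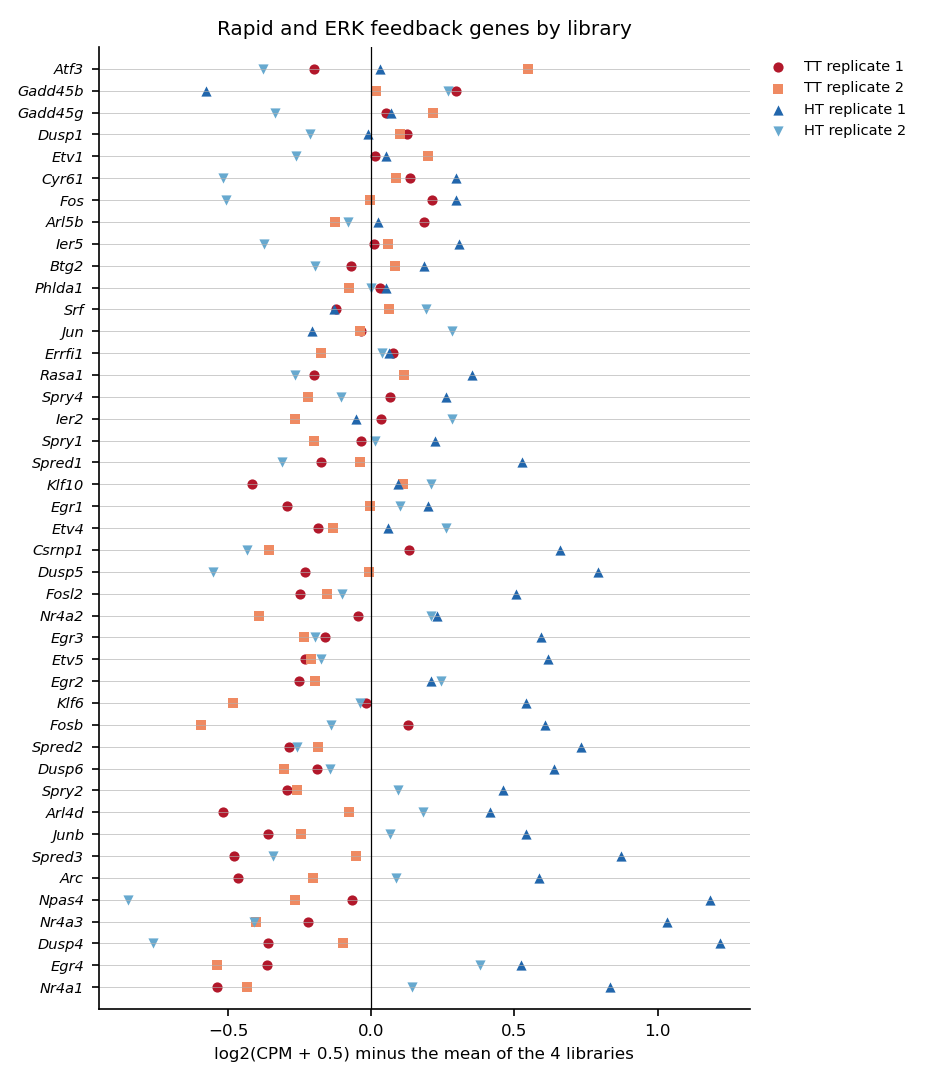
Log2(CPM + 0.5) of the rapid and ERK feedback genes in each TT and HT library, relative to the mean of the 4 libraries and ordered by log2 change of TT over HT. HT replicate 1 lies to the right in most of the lower part of the plot. Both TT libraries lie below both HT libraries in 9 of 28 rapid and 5 of 15 ERK feedback genes, beside 16.2% of all genes. In the rest the groups overlap or lie the other way.

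Genes of the synapse were bounded more tightly than the rapid activity genes, of which 9 of 28 lay within 2-fold. Gria1 and Gria2 encode AMPA receptor subunits, which carry fast excitation and are the receptors adjusted in homeostatic scaling. Gria1 had 1817 and 1793 CPM in TT and 1535 and 1891 CPM in HT, a log2 change of 0.08 with a 95% interval from -0.31 to 0.46. Gria2 had 794 and 735 CPM in TT and 791 and 659 CPM in HT, a log2 change of 0.08 with an interval from -0.33 to 0.49. Their groups overlapped, and a difference beyond 2-fold lay outside both intervals. Over the 23 AMPA receptor subunits and partners tested, 6 stood higher and 17 lower with a median of -0.05. Of them 21 were bounded within 2-fold, beside 82% of all genes and 96.2% of genes at 100 CPM or more. The 19 NMDA, kainate and metabotropic glutamate receptor genes gave 9 higher and 10 lower with a median of -0.01. The AMPA median was -0.15 without HT replicate 2, and the other ran from -0.05 without TT replicate 1 to 0.05 without HT replicate 2.

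Other synaptic lists leaned to lower values in TT by small amounts. Of 38 presynaptic release genes 5 stood higher and 33 lower (median -0.13), of 32 postsynaptic scaffold and signalling genes 6 and 26 (-0.14), of 22 GABA receptor and inhibitory synapse genes 5 and 17 (-0.15), and of 32 synaptic adhesion genes 11 and 21 (-0.09). The largest shares of these lists had their highest value in HT replicate 1, for 22, 20, 13 and 17 genes. Without that library the medians were -0.06, -0.02, 0.02 and 0.06, in the same order, and without TT replicate 2 those of the presynaptic and adhesion genes were -0.05 and -0.04. Without TT replicate 1 the presynaptic median was -0.23, and without HT replicate 2 the first 3 were -0.21, -0.26 and -0.21. Syt5, a synaptotagmin gene of vesicle release, had 29.9 and 27.3 CPM in TT and 41.7 and 37.3 CPM in HT (log2 change -0.47 ± 0.19). Shank3, a scaffold of the postsynaptic density, had 157 and 152 CPM in TT and 203 and 176 CPM in HT (-0.29 ± 0.13). Gabrd, the delta subunit of extrasynaptic GABA receptors, had 2.49 and 3.98 CPM in TT and 8.80 and 4.49 CPM in HT (-1.02 ± 0.43). These 3 genes were picked by p within their lists. Their groups did not overlap, beside 34.4% of all genes, and none passed (edgeR adjusted p = 1.00 for each). Without HT replicate 1 the log2 changes of Shank3 and Gabrd were -0.18 and -0.44.

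Of 33 genes tied to homeostatic synaptic scaling 15 stood higher and 18 lower (median -0.09; 0.0037 without HT replicate 1). Ion channel genes gave 3 higher and 10 lower for sodium channels and partners (median -0.07; -0.14 without TT replicate 1 and 0.05, with 8 higher and 5 lower, without TT replicate 2), 6 and 9 for calcium channels (-0.10; -0.03 without TT replicate 2), and 10 and 34 for potassium and HCN channels (-0.16; -0.05 without HT replicate 1 and -0.06 without TT replicate 2). Kcnk1, a leak potassium channel gene, had 35.9 and 26.5 CPM in TT and 41.1 and 42.1 CPM in HT (-0.42 ± 0.18; -0.21 without TT replicate 2). Of 25 neuropeptide and trophic factor genes 5 stood higher and 20 lower (-0.18), with a median of -0.08 over the 30 that pass the filter without HT replicate 1 and of -0.10 over as many without TT replicate 2.

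Of 31 chromatin and DNA methylation regulators 14 stood higher and 17 lower (median -0.01), and 2 had an unadjusted p under 0.05, beside 2.35% of all genes: Hdac8, a histone deacetylase gene, with 117 and 110 CPM in TT and 74.0 and 101 CPM in HT (log2 change 0.38 ± 0.16; 0.17 without HT replicate 1 and 0.62 without HT replicate 2), and Ezh1, a histone H3 methyltransferase gene, with 26.7 and 28.7 CPM in TT and 21.2 and 21.1 CPM in HT (0.39 ± 0.17). All 52 ribosomal protein genes and all 49 oxidative phosphorylation genes were bounded within 2-fold, with medians of -0.07 and -0.01. Of the ribosomal genes 36 were highest in HT replicate 2, against 25.6% of all genes, and the median was 0.07 without it and -0.20, with 7 higher and 45 lower, without HT replicate 1. Of 23 cholesterol genes 9 stood higher and 14 lower (-0.08), with levels of -0.24 and 0.11 in TT and 0.24 and -0.11 in HT, so that the replicates differed by more than the groups. The cholesterol median was -0.34 without TT replicate 2 (2 higher, 21 lower), 0.02 without TT replicate 1, 0.03 without HT replicate 1, -0.24 without HT replicate 2 and -0.17 with Eif2s3y reads as a term. Of 31 stress response genes 16 stood higher and 15 lower (0.03), and of 16 circadian clock genes 9 and 7 (0.01; -0.07 without TT replicate 2).

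**Figure D5:**
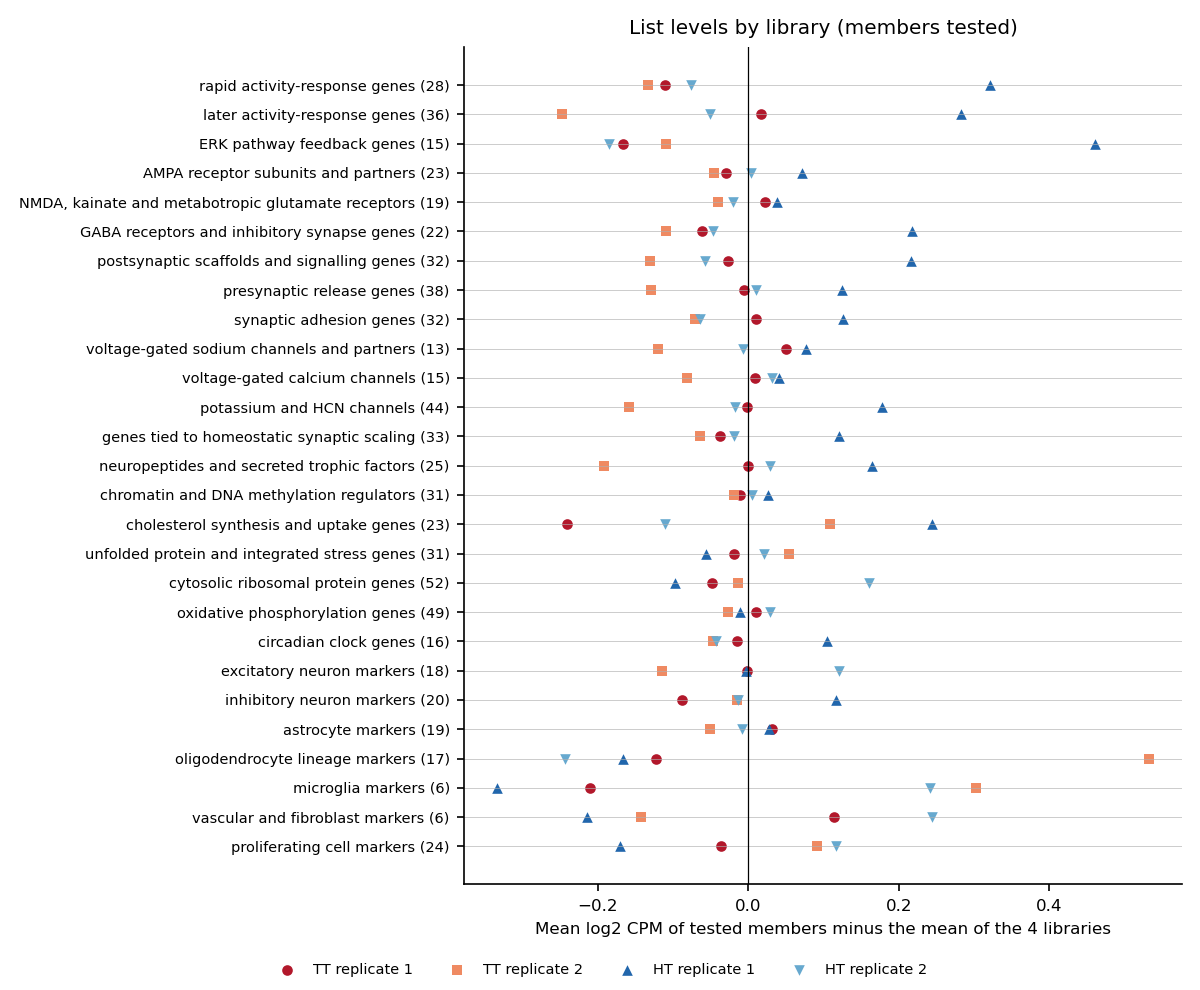
Level of each of the 27 gene lists in each TT and HT library: the mean log2 CPM of the tested members (number in brackets) relative to the mean of the 4 libraries. HT replicate 1 is the highest library for the 3 activity lists and most synaptic lists, and TT replicate 2 stands alone for the oligodendrocyte lineage.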

How the data were processed

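Nascent RNA of 8 libraries was measured by BrU-seq. The authors deposited raw read counts, whole numbers for 16871 gene symbols. The submitters' processing notes name rat build rn6 and the tools FastQC, TopHat2, Bowtie2 and featureCounts; versions, annotation, strand setting and handling of intronic reads were not given in the sources used here. Overlapping or antisense genes may therefore share reads, and a count without introns would miss much of a nascent transcript. Each library was found by the number opening its description, and 2 columns matching no sample were not used. Groups came from the sample titles, which give no batch, date or sex.

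edgeR 4.0.16 (R 4.3.3) was run with its expression filter by group, TMM scaling, 1 model of 4 group means (4 residual degrees of freedom), the robust quasi-likelihood test, and Benjamini-Hochberg adjustment at 0.05 over all genes tested. The common biological coefficient of variation was 0.128. Each standard error is the size of the log2 change divided by the root of the F statistic, and so draws on the spread in every group. CPM are counts scaled by edgeR to the TMM-normalized library total, and log2 CPM carry a prior count of 2. The test was checked on simulated counts. Alternatives used DESeq2 1.42.0, limma 3.58.1, other scaling, filters, the replicate number as a block and left-out libraries. Plots were made in Python 3.11.15 (matplotlib 3.10.9). All totals lay between 3489176 and 4959887 counts.

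Named genes were the 12 of smallest p in each direction, up to 4 per list by p, the activity genes Fos, Npas4, Arc, Bdnf, Homer1 and Nptx2, the subunit genes Gria1 and Gria2, the 5 of smallest p in the interaction, the 6 widest gaps between groups in each direction at 5 CPM or more, and members of the activity lists. Placeholder symbols were left out. Gpr17, Bcas1, Myrf, Bmp4, Pdgfra, Olig1, Olig2, Sox10, Cep112 and the sex-linked genes were named after their values were seen. The comparison, its 27 lists and these rules were chosen with earlier results of these data known. Listed symbols absent from the table were not analysed here, and a few genes that these rules name are not reported here.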

Additional observations from a re-analysis of the deposited data

How the results depend on the processing

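No gene passed between TT and HT under any of the 19 alternatives. The number at an unadjusted p under 0.05 was 459 with the TT and HT libraries alone, 100 with DESeq2, 89 without TT replicate 2 and HT replicate 1, 664 with Eif2s3y reads as a term, and 136 to 453 when 1 library was left out, lowest without TT replicate 2; the cause was not tested. The 2 settings with TT replicate 2 and HT replicate 1 left out together, or Eif2s3y reads as a term, were chosen after seeing the data. Genes without overlap numbered 7246 to 8254 with 1 TT or HT library left out, 8017 without HH replicate 1 and HT replicate 1, and 11562 with 1 library against 1, since fewer values overlap less. Leaving out 1 library gave 0 to 2 interaction genes and 0 to 121 genes in TH against HH, 121 being the count without HH replicate 2. Replicate numbers did not pair the libraries of TT and HT (correlation of deviations -0.036), and with the replicate block 338 genes had an unadjusted p under 0.05 and 0 passed.

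The 65 genes named with a fold change were in large part picked by p in these libraries. Of them, 55 kept their direction under every alternative, and the smallest adjusted p of any was 0.363. The other 10 changed sign with the libraries left out. With 1 library left out, the log2 change ran from -0.202 to 0.646 for Fos, from -1.47 to 0.799 for Npas4, from -1.24 to 0.333 for Bdnf, from -0.316 to 0.18 for Nptx2, from -1.12 to 0.153 for Rgs4, from -0.0485 to 0.216 for Gria2 (in these the ends are without HT replicate 2 and without HT replicate 1), from -0.0659 to 0.233 for Gria1 (without HT replicate 1 and without HT replicate 2), and from -0.105 to 0.331 for Sox10 and -0.0603 to 1.44 for Bmp4 (without TT replicate 2 and without TT replicate 1). Without HH replicate 1 and HT replicate 1 it was 0.794 for Npas4, 0.327 for Bdnf, 0.175 for Nptx2, 0.148 for Rgs4, -0.0703 for Gria1 and -0.038 for Sox10. Without TT replicate 2 and HT replicate 1 it was 0.917 for Npas4, 0.551 for Bdnf, 0.301 for Nptx2, 0.146 for Rgs4, 0.0263 for Homer1, -0.0564 for Gria1 and -0.28 for Sox10. With Eif2s3y reads as a term, Fos stood at -0.421. With a single library on a side, its spread is taken from the other groups.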

Other observations

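Among genes at a mean of 5 CPM or more whose groups did not overlap, the widest gaps between the nearest libraries of TT and HT belonged on the higher side to Plxnb3, Arg2, Tmprss5 and Slc5a3, given above, and to Cldn10 and Dennd2c. Cldn10, a claudin gene of tight junctions that astrocytes also express, had 8.22 and 7.97 CPM in TT and 4.40 and 4.21 CPM in HT. Dennd2c had 6.73 and 6.37 CPM in TT and 3.36 and 3.65 CPM in HT. On the lower side, beside Kcnc4 and E230034O05Rik, stood Nrarp, a feedback inhibitor gene of Notch signalling, with 4.24 and 5.18 CPM in TT and 8.54 and 8.98 CPM in HT, and Cbr3, a carbonyl reductase gene, with 2.74 and 4.18 CPM in TT and 6.99 and 7.86 CPM in HT. Fsd1 had 4.73 and 4.38 CPM in TT and 7.76 and 8.14 CPM in HT, and Pamr1 had 5.48 and 5.78 CPM in TT and 10.9 and 8.98 CPM in HT. None of these passed adjustment (edgeR adjusted p = 1.00 for each).

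Other genes were read against the split of the libraries by Eif2s3y reads. With their presence as a term, 971 genes (8.54%) had an unadjusted p under 0.05 for the term itself, beside 568.6 for a uniform p. Eif2s3y defines the term and Ddx3 was picked for the same split, and beside them 3 genes passed (edgeR, Benjamini-Hochberg adjusted). Higher in the 3 libraries with the reads were a gene with a placeholder symbol and Cep112 (0.90 ± 0.12, adjusted p = 0.0209), a centrosomal protein gene, with 62.8 and 50.2 CPM in TT and 59.5 and 109 CPM in HT. The lower gene was Rgs4, a regulator of G protein signalling (-1.21 ± 0.14, adjusted p = 0.00934), with 18.9 and 19.1 CPM in TT and 41.4 and 17.1 CPM in HT. Rgs4 is also a member of the later activity list, and HT replicate 1, highest for most of that list, was without the reads. Both TT libraries were also without them, at Rgs4 values near that of HT replicate 2. The numbers of the term rest on 3 residual degrees of freedom, and sex, preparation and sequencing run cannot be told apart here. No TT library held the reads, while each other group had 1 library that did.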
